A study of Mus musculus with 21 samples.

Results

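The AP-1 and immediate early genes Fos, Fosl2, Jun, Junb, Jund, Atf3, Egr1, Ier2, Ier3 and Myc were followed by bulk RNA sequencing through cultures of mouse bone-marrow-derived macrophages. They were chosen by gene symbol, with earlier results of these data known, as 10 of the 34573 genes of the count table. Of the 10, 7 held enough reads to be tested. The cells were grown from marrow of C57bl/6 mice aged 12 weeks, for 6 days in medium that L929 cells had conditioned with the growth factor M-CSF, and all groups share this background. Cells were left untreated (control, 3 libraries), or received succinate (4 libraries) or dimethyl malonate (DMM, 4 libraries) for 3 h. Further cultures then received bacterial lipopolysaccharide (LPS) for 4 h (2 libraries) or 48 h (2 libraries). The remaining groups were DMM then LPS for 4 h (2 libraries), DMM then LPS for 48 h (2 libraries), succinate then LPS for 4 h (1 library) and succinate then LPS for 48 h (1 library). Succinate is a metabolite of the tricarboxylic acid cycle, and DMM releases malonate, an inhibitor of the enzyme that oxidises succinate. Doses are not given here, nor is it said that the replicates of a group were separate cultures or animals, and the p-values then reflect the spread among libraries only, which may be technical. Unstimulated libraries carry a number but no hours, and those of the 4 h and 48 h sets were therefore taken as 1 group per treatment.

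AP-1 is a transcription factor made of pairs of basic leucine zipper proteins. FOS proteins cannot pair with each other and need a JUN partner, whereas JUN proteins can pair among themselves, and ATF3 can pair with JUN proteins or with itself and often acts as a repressor in macrophages. In macrophages LPS signals through Toll-like receptor 4 to NF-kappaB and the MAP kinases, and immediate early genes are those transcribed in the first minutes to hours of such a signal without new protein synthesis, many of them only briefly. EGR1 is a zinc finger factor, MYC a growth-promoting factor that pairs with MAX, and IER2 and IER3 are small proteins encoded by immediate early genes.

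Total counts were 662186 to 1223856 in the 11 unstimulated libraries and 996916 to 1546867 in 9 LPS-treated libraries. The mitochondrial share of counts was 2.84 to 4.10% and 1.19 to 2.86% in the same order, so both moved with LPS, and their part in the results below was not tested. The library labelled LPS 48 h replicate 1 went against its label. Saa3, an acute-phase gene that LPS induces, was at 33.5 CPM (reads per 1e6 reads of the tested genes, scaled between libraries) in it, at most 107 CPM in the unstimulated libraries and at least 52563 CPM in the other LPS-treated libraries; Il1b and Tnf, encoding inflammatory cytokines, were at 0.881 and 7.05 CPM in it and at 5086 and 268 CPM in replicate 2. It was kept apart, and LPS 48 h below is replicate 2 alone, set against the spread of the other groups. Macrophage markers summed to 54323 to 91384 CPM in unstimulated and 77359 to 172510 CPM in LPS-treated libraries, 8 of 9 listed genes being in the table. Most of that sum was Lyz2, at 43623 to 77932 CPM without and 65330 to 133720 CPM with LPS. The list did not move together. Emr1, Itgam and Fcgr1 lay above all unstimulated libraries in every LPS-treated one, while Csf1r, Mertk and Cd14 overlapped. Cd68 ran lower, at 1159 to 2040 CPM without and 254 to 1173 CPM with LPS. Of 9 neutrophil markers, Ly6g and Ltf were at 0 in every library, and the list summed to 0.688 to 15.6 CPM without and 32.5 to 1142 CPM with LPS, nearly all from S100a8 and Mmp8. Of the B cell markers, Cd79a was at 0 in every library, and the list, nearly all Ighm, summed to 55.0 to 164 CPM without and 0 to 2.14 CPM with LPS. T and NK cell, erythroid, and mast cell and basophil lists stayed at or below 3.11 CPM, dendritic cell genes at or below 12.4 CPM, and stromal genes at 1.48 to 8.06 CPM without and 2.55 to 38.5 CPM with LPS. The part of these lists in the results was not tested. In bulk RNA, fewer cells of a type and less RNA per cell cannot be told apart.

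LPS divided the members into those that were high in every treated library and those that were not. Fosl2, Junb and Ier3, 3 of the 7 tested genes, were higher in each of the 9 LPS-treated libraries than in any of the 11 unstimulated ones. Of all 7651 genes tested, 6.84% were. Fosl2 and Ier3 held at most 6 reads in any unstimulated library and passed the low-count filter only through LPS-treated libraries. Their separation is thus a description and not a test. The library kept apart, at 3.52, 14.1 and 0.881 CPM of these 3 genes, is not among the 9. Fos and Ier2 overlapped in part between treated and untreated libraries, Jun overlapped throughout, and Atf3 was high only in part of the treated libraries. Myc, Jund and Egr1 held so few reads that they were not tested.

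The promoters of genes from these classes are shown because the data place the genes apart: Ier3, Junb, Fosl2 and Fos, which LPS raised in untreated cells, and Atf3, which was not called there. Ier2, also raised there at 4 h, had no promoter entry. Jun, also not called there, had an entry that was read but is not shown. Each runs from 250 bases before to 50 bases after the annotated start, 5′ to 3′ on the gene's strand, from RefSeq on GRCm38.p6, whose table held 7 of the 10 genes. Capitals mark the motifs found on either strand: GC boxes (GGGCGG), kappaB sites and TATA boxes (TATAAA).
Ier3: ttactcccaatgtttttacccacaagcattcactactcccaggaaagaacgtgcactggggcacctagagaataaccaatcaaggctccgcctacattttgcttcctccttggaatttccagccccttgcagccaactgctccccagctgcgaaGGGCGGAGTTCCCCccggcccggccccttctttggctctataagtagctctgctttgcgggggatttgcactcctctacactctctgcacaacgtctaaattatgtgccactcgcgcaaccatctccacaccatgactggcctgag
Junb: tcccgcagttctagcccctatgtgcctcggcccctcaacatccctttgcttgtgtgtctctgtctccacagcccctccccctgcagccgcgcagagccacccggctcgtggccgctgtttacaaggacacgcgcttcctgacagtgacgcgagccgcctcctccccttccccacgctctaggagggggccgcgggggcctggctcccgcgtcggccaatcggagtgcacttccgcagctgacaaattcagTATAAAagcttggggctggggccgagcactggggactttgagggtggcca
Fosl2: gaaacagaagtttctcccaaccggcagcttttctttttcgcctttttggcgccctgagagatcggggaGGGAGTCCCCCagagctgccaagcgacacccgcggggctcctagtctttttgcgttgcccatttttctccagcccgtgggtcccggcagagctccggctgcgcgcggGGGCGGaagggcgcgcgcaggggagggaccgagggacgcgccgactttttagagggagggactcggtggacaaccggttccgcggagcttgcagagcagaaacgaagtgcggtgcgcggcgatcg
Fos: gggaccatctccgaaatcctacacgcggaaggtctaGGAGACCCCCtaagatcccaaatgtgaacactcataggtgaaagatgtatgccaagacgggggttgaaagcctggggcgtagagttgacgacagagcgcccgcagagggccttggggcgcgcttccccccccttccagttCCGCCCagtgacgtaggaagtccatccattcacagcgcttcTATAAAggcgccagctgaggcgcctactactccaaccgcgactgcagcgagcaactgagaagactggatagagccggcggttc
Atf3: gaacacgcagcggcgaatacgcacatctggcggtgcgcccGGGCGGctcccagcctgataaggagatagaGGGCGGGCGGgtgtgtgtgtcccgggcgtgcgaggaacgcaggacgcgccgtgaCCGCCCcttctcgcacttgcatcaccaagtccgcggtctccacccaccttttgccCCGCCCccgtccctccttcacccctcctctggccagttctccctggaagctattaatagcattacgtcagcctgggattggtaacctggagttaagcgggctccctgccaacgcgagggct
They lie at chr17:35821463-35821762 on the plus strand (Ier3), chr8:84978699-84978998 on the minus strand (Junb), chr5:32136222-32136521 on the plus strand (Fosl2), chr12:85473640-85473939 on the plus strand (Fos) and chr1:191183284-191183583 on the minus strand (Atf3).

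The letters of the palindromic AP-1 site (TGANTCA), of the cyclic AMP response element (TGACGTCA) and of the CArG box, the binding sequence of the serum response factor, were in none of the 7 windows read, which also include Jun and Jund. Of all 32851 promoter windows of this length, 7.81%, 1.79% and 1.63% held them. A GC box, found in 35.7% of all windows, was in Fos, Fosl2, Jun and Ier3 once each and in Atf3 at 5 positions, 2 of them overlapping. A kappaB site, found in 8.46% of all windows, was in Ier3 at -92 from the start, where it overlaps the GC box, in Fos at -214 and in Fosl2 at 2 overlapping positions. A TATA box, found in 13.6% of all windows, lay at -33 in Fos and at 1, the first base of the annotated transcript, in Junb. KappaB and TATA motifs were added after the other motifs had been counted. These are matches of letters, not measured binding, and a window without a match says nothing of sites elsewhere. Sites inside a window that differ from the given letters were not counted either.

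**Figure D1:**
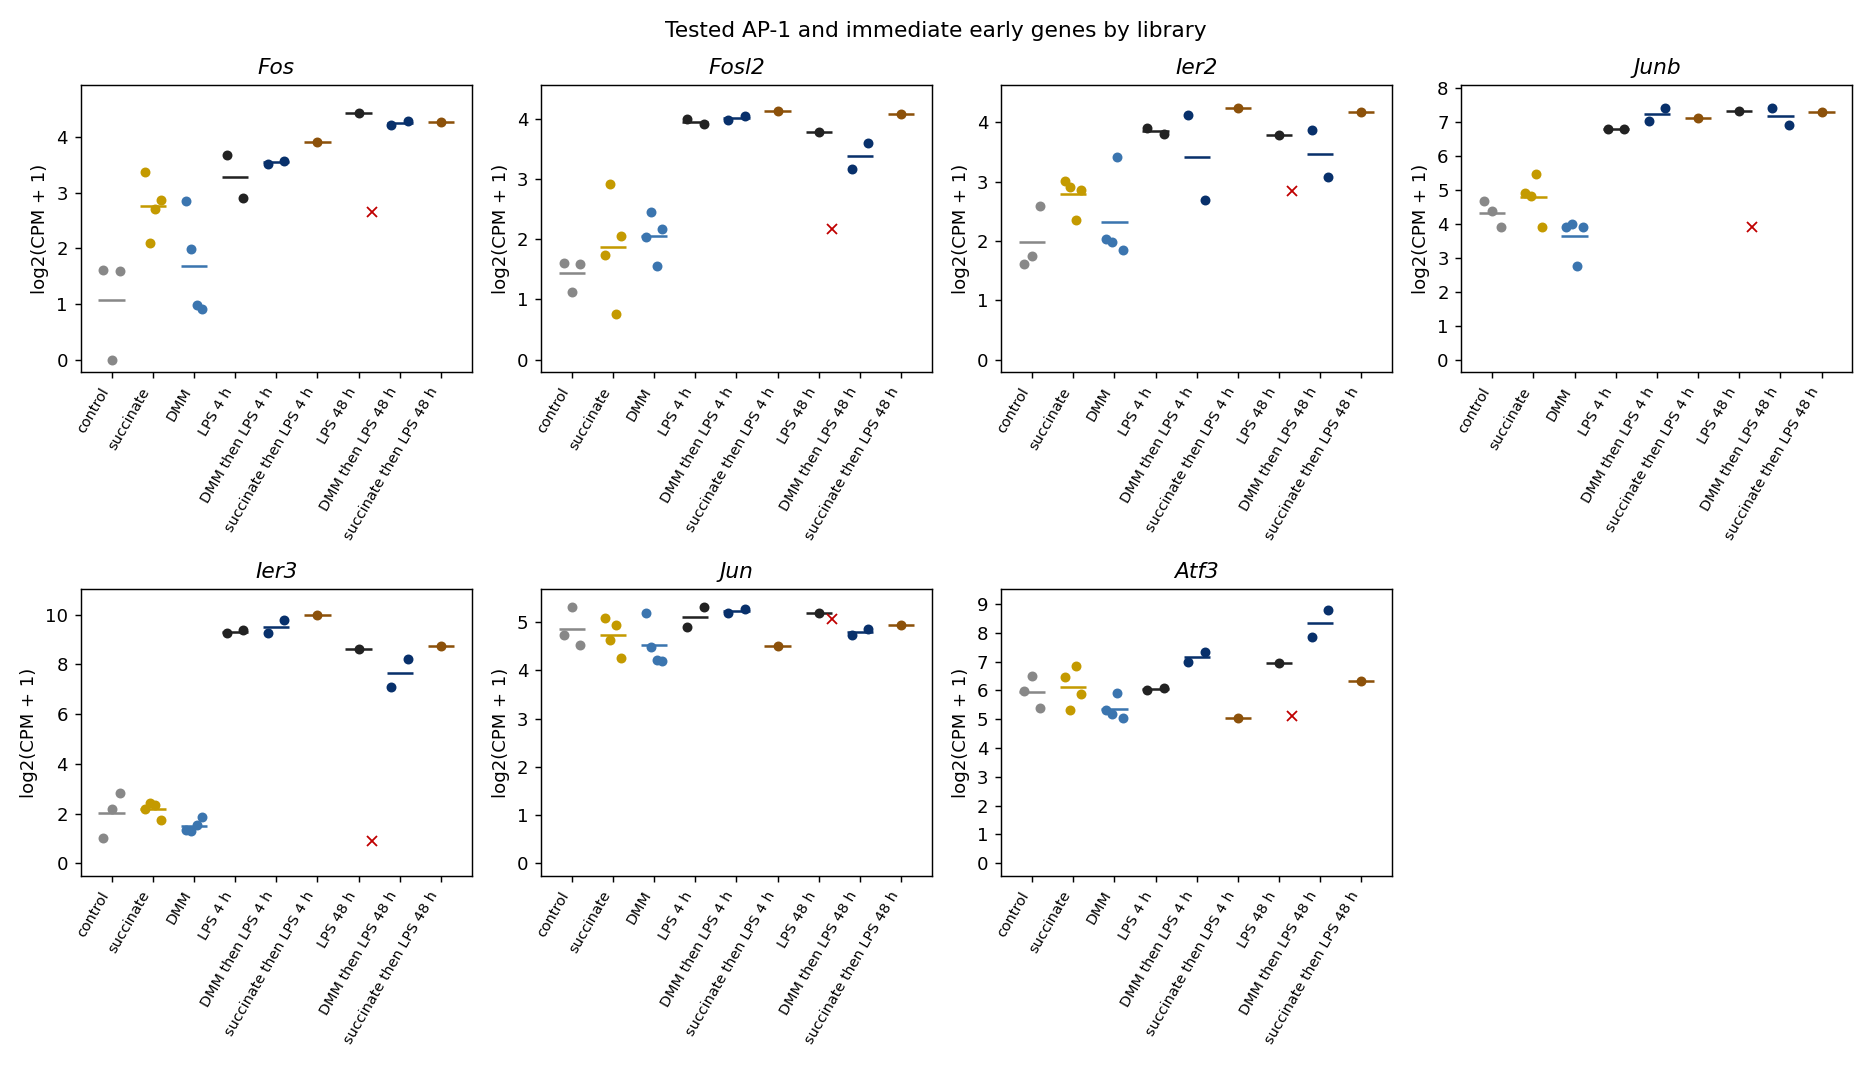
Level of each tested gene in each library, as log2(CPM + 1) on axes that start near 0, by treatment group. Points are libraries, bars are group means of the plotted values, and the red cross is the library labelled LPS 48 h replicate 1. Fosl2, Junb and Ier3 separate the 9 LPS-treated from the 11 unstimulated libraries, Jun does not, and Atf3 is highest after DMM then LPS.

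LPS for 4 h in untreated cells raised Fos, Fosl2, Junb, Ier2 and Ier3, 5 of the 7 tested genes, and lowered none. Of these, Fosl2 and Ier3 passed the low-count filter only through LPS-treated libraries. Their calls and p-values against unstimulated cells, here and below, are thus a description, as are counts and medians that include them. The background was 14.0% of all genes called higher and 11.0% called lower. The median log2 fold change of the 7 genes was 2.50, and that of all genes tested was -0.08. Jun, at 0.25 ± 0.33 (log2 fold change ± SE), and Atf3, at 0.04 ± 0.39, did not pass (adjusted p = 0.646 and 0.961). These and all adjusted p-values below are from edgeR's quasi-likelihood test with Benjamini-Hochberg adjustment over all genes tested, and a gene is called, or said to rise or fall, where that value is under 0.05. LPS for 48 h raised 4 of the 7 genes, Fos, Fosl2, Junb and Ier3, against a background of 11.6% higher and 7.15% lower, with a median of 2.78 beside -0.10 over all genes.

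Ier3, whose product is linked to cell survival and to feedback on NF-kappaB signalling, showed the largest difference of the tested members. It was at 1.03, 3.51 and 6.04 CPM in the controls and at 619.6 and 659 CPM after 4 h of LPS. Both LPS libraries lay far above every control. Ier3 passed the low-count filter only through LPS-treated libraries, so its calls against unstimulated cells are a description. The rise was 175-fold (log2 fold change 7.45 ± 0.45, adjusted p = 4.91e-15, edgeR), and the control value rests on 10 reads in 3 libraries. After 48 h it was at 392 CPM, a log2 fold change of 6.74 ± 0.48 from control (edgeR, adjusted p = 3.68e-13). With DMM before LPS it was at 617 and 878 CPM at 4 h and at 137 and 301 CPM at 48 h. The 4 h libraries all lay above the 48 h libraries, with succinate too (1003 CPM at 4 h and 429.7 CPM at 48 h). After DMM, Ier3 fell from 4 h to 48 h by 1.77 ± 0.36 on the log2 scale (edgeR, adjusted p = 0.00532), the only one of the 7 genes called in that comparison, where 0.261% of all genes were called lower. The call ended without DMM then LPS 4 h replicate B (-1.49 ± 0.41, adjusted p = 0.128) and with all 21 libraries (-1.78 ± 1.09, adjusted p = 0.745), at log2 fold changes in the same direction (edgeR; range over 10 alternatives 7.64e-05 to 0.745). Without DMM, the difference between 48 h and 4 h was -0.71 ± 0.44 (edgeR, adjusted p = 1). In the order of group levels, succinate then LPS 4 h, DMM then LPS 4 h and LPS 4 h came first, with DMM then LPS 4 h overlapping LPS 4 h, followed by succinate then LPS 48 h, LPS 48 h and DMM then LPS 48 h; the 3 unstimulated groups lay last, overlapped one another and held 34 reads in 11 libraries.

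Junb, the JUN family protein known as a weaker activator than JUN at many sites, was at 24.7, 19.9 and 14.1 CPM in the controls. After LPS it was at 111 and 110.3 CPM at 4 h and at 161 CPM at 48 h. These values lay well above all controls and close to each other at 4 h. The log2 fold change was 2.50 ± 0.34 at 4 h (edgeR, adjusted p = 5.92e-07) and 3.03 ± 0.39 at 48 h (edgeR, adjusted p = 2.35e-07); with the library kept apart included, the 48 h change was 2.19 ± 0.65 (edgeR, adjusted p = 0.0579; range over 10 alternatives 2.3e-15 to 0.0579). After DMM and LPS it was at 132 and 169 CPM at 4 h and at 169 and 121 CPM at 48 h, and after succinate and LPS at 138 and 158 CPM. All 9 treated libraries thus lay between 110.3 and 169 CPM, the LPS 4 h libraries lowest. Junb overlaps Prdx2 on the opposite strand in the GENCODE vM21 annotation, and the strand setting of the counting is not given, so reads of the overlap cannot be told apart. Prdx2 differed by 0.39 ± 0.29 between LPS 4 h and control (edgeR, adjusted p = 0.360), and fell by 1.22 ± 0.32 in DMM then LPS 4 h against LPS 4 h (edgeR, adjusted p = 0.00943).

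Jun, the founding member of the JUN family, was at 25.7, 38.6 and 22.2 CPM in the controls, at 28.9 and 38.9 CPM after 4 h and at 35.5 CPM after 48 h of LPS. The treated libraries lay between the lowest and the highest control, except for 1 of the 4 h libraries, which was just above the highest. Over the 20 libraries Jun ran from 17.4 CPM in a DMM library to 38.9 CPM. Within DMM-treated cells the LPS 4 h libraries, at 35.8 and 37.5 CPM, lay just above the highest of the 4 unstimulated ones, at 35.7, 21.5, 17.5 and 17.4 CPM, a difference of 0.72 ± 0.29 (edgeR, adjusted p = 0.0576) that passed without DMM replicate 1 (0.94 ± 0.29, adjusted p = 0.0131) and with the 48 h LPS libraries left out (adjusted p = 0.0453; range over 13 alternatives 0.0131 to 0.178). Jun overlaps the antisense gene Junos, which is not in the count table under that name.

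Fos was low throughout, from 0 to 20.7 CPM. It was at 2.05, 0 and 2.01 CPM in the controls, at 11.8 and 6.49 CPM after 4 h and at 20.7 CPM after 48 h of LPS. The 4 h and 48 h libraries were all above the controls, and the 48 h library was the highest of all 20. The log2 fold change was 2.60 ± 0.75 at 4 h (edgeR, adjusted p = 0.00682) and 3.76 ± 0.73 at 48 h (edgeR, adjusted p = 0.000144), with 4 reads in the 3 controls together. Without LPS 4 h replicate A the 4 h change was 2.11 ± 0.98 (edgeR, adjusted p = 0.131; range over 12 alternatives 0.00579 to 0.131). After DMM then LPS Fos was at 10.5 and 11.0 CPM at 4 h and 17.6 and 18.6 CPM at 48 h, and after succinate then LPS at 14.1 and 18.3 CPM. For each pretreatment the 48 h libraries lay above the 4 h libraries, by 1.17 ± 0.59 without pretreatment (edgeR, adjusted p = 1) and 0.75 ± 0.46 after DMM (edgeR, adjusted p = 0.562), neither of which passed.

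Fosl2, which encodes the FOS family protein FRA-2, was at 2.05, 1.17 and 2.01 CPM in the controls, at 15.0 and 14.1 CPM after 4 h and at 12.8 CPM after 48 h of LPS. The controls held 5 reads together. Fosl2 passed the low-count filter only through LPS-treated libraries, so its calls against unstimulated cells are a description. The rise was 2.95 ± 0.62 at 4 h (edgeR, adjusted p = 0.000265) and 2.78 ± 0.74 at 48 h (edgeR, adjusted p = 0.00479), the latter not called with the library kept apart included (2.13 ± 0.73, adjusted p = 0.0716; range over 10 alternatives 0.00504 to 0.0716). After DMM then LPS it was at 14.9 and 15.5 CPM at 4 h and at 7.98 and 11.2 CPM at 48 h, and after succinate then LPS at 16.6 and 16.0 CPM. The DMM then LPS 48 h libraries were the lowest of the 9 treated ones, yet above all 11 unstimulated libraries, whose highest value was 6.53 CPM.

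Ier2, a nuclear protein gene of the immediate early class, was at 2.05, 2.34 and 5.04 CPM in the controls, at 13.9 and 13.0 CPM after 4 h and at 12.8 CPM after 48 h of LPS. It rose at 4 h by 2.04 ± 0.61 (edgeR, adjusted p = 0.0104), and the difference at 48 h was 1.97 ± 0.73 (edgeR, adjusted p = 0.0518). Without LPS 4 h replicate A the 4 h change was 1.99 ± 0.76 (edgeR, adjusted p = 0.0635; range over 12 alternatives 0.00648 to 0.0635). DMM then LPS libraries spread widely, at 16.5 and 5.48 CPM at 4 h and at 13.6 and 7.45 CPM at 48 h, while succinate then LPS libraries were at 17.9 and 17.1 CPM.

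**Figure D2:**
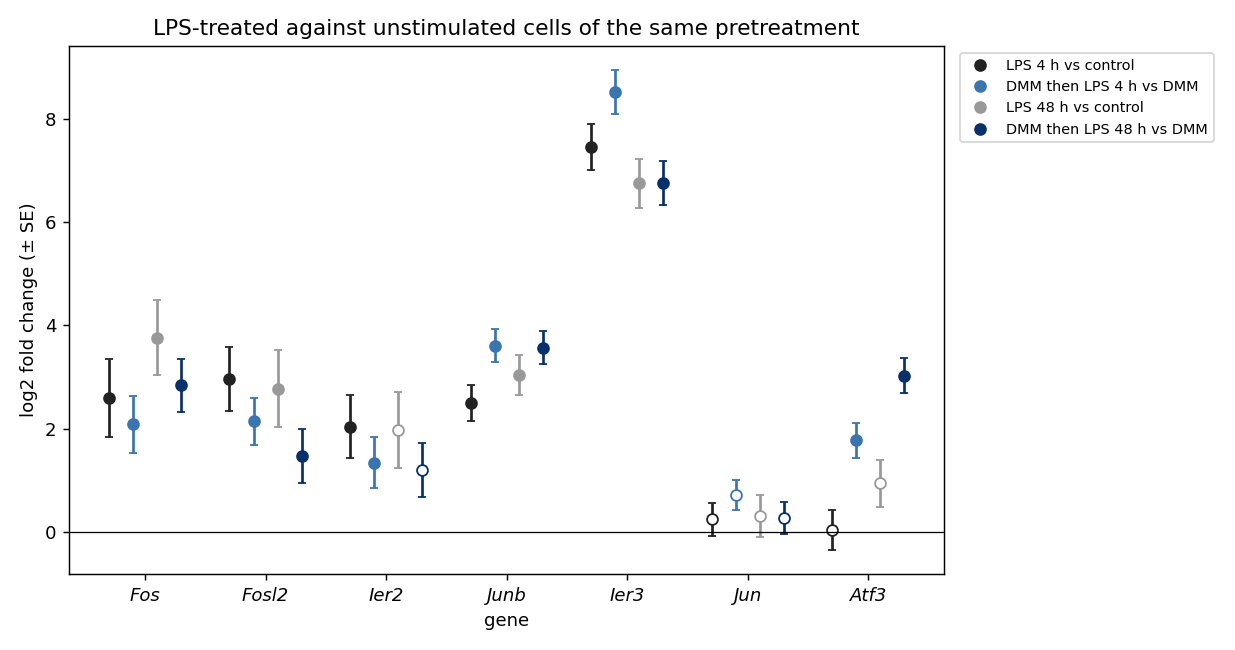
Log2 fold change of LPS-treated against unstimulated cells of the same pretreatment for the 7 tested genes, with standard errors, at 4 h and 48 h. Filled points passed edgeR's test over all genes and open points did not. Ier3 lies between 6.74 and 8.52 in all comparisons, and Atf3 passed in DMM-treated cells only, although the difference of its effects did not pass a test.

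In DMM-treated cells LPS for 4 h raised Fos, Fosl2, Junb, Ier2, Ier3 and Atf3. The 6 called genes stood against 14.4% of all genes higher and 17.2% lower, and the median of the 7 was 2.09 beside -0.01 over all genes. At 48 h 5 genes rose (Fos, Fosl2, Junb, Atf3 and Ier3), against 14.2% higher and 14.3% lower, with a median of 2.84 beside -0.03. Ier3 rose by 8.52 ± 0.42 at 4 h (edgeR, adjusted p = 1.19e-16) from 1.55, 1.48, 1.95 and 2.61 CPM in DMM alone, and by 6.75 ± 0.43 at 48 h. Junb rose by 3.61 ± 0.32 at 4 h and by 3.57 ± 0.32 at 48 h, from 14.0, 14.8, 5.84 and 13.9 CPM. Fos rose by 2.09 ± 0.55 and 2.84 ± 0.52, from 6.21, 2.97, 0.974 and 0.870 CPM. These 3 genes were called in every alternative run for both times. The call of Ier2 at 4 h (1.34 ± 0.49, edgeR, adjusted p = 0.0330) was made although its libraries overlapped those of DMM alone, and without DMM then LPS 4 h replicate A the change was 0.29 ± 0.75 (adjusted p = 0.834; range over 13 alternatives 0.00405 to 0.834). That call held in 7 of the 13, and was also lost with DESeq2 (adjusted p = 0.133) and without DMM replicate 1, 2 or 4 (0.0561, 0.0965 and 0.101, edgeR). The call of Fosl2 at 48 h (1.48 ± 0.52, edgeR, adjusted p = 0.0281) was lost without DMM then LPS 48 h replicate 2 (1.23 ± 0.66, adjusted p = 0.175) and without DMM replicate 3 (1.33 ± 0.55, adjusted p = 0.0674; range over 13 alternatives 0.0258 to 0.175), and also with DESeq2 (1.52, adjusted p = 0.0918) and with no low-count filter (1.48, adjusted p = 0.0747), so that it held in 9 of the 13.

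Atf3 was called higher with LPS in DMM-treated cells and not in untreated cells, and the difference between these effects did not itself pass. In untreated cells it was at 62.7, 88.9 and 41.3 CPM, and after 4 h of LPS at 64.2 and 67.0 CPM, inside the range of the controls. After 48 h of LPS the single library was at 123 CPM, a difference of 0.94 ± 0.45 from control that did not pass (edgeR, adjusted p = 0.160). In cells given DMM alone Atf3 was at 38.8, 35.6, 59.4 and 32.2 CPM. With LPS after DMM it was at 125 and 159 CPM at 4 h and at 231 and 446 CPM at 48 h. Every DMM then LPS library thus lay above every other library of the study, including LPS 48 h. Within DMM-treated cells Atf3 rose with LPS by 1.77 ± 0.34 at 4 h (edgeR, adjusted p = 0.000181) and by 3.03 ± 0.34 at 48 h (edgeR, adjusted p = 5.34e-08), and both calls held in all 13 alternatives.

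The direct tests of a DMM effect on Atf3 were less decided. Under LPS, DMM against no DMM gave 1.11 ± 0.41 at 4 h (edgeR, adjusted p = 0.0713, and 0.0205 to 0.272 over 11 alternatives) and 1.46 ± 0.51 at 48 h (edgeR, adjusted p = 0.198). The difference between the LPS effects with and without DMM was 1.74 ± 0.53 at 4 h (edgeR, adjusted p = 0.0533) and 2.08 ± 0.61 at 48 h (edgeR, adjusted p = 0.158). None of these passed as tested. Over the alternatives the 4 h difference of effects ran from 1.44 to 1.98, with adjusted p from 0.00435 to 0.217 and a call in 7 of 18, and the 48 h one from 1.53 to 2.74, with a call in 2 of 16. The direction was the same in all of them.

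After succinate then LPS, Atf3 was at 31.9 CPM at 4 h and 80.0 CPM at 48 h, both below LPS alone at the same time. The differences of -1.04 ± 0.58 and -0.62 ± 0.58 did not pass (edgeR, adjusted p = 0.738 and 0.994). In the order of levels DMM then LPS 48 h and DMM then LPS 4 h came first, then LPS 48 h with 1 library; the next groups, succinate then LPS 48 h, succinate, LPS 4 h and control, lay within each other's range, and DMM alone, which overlapped control, and succinate then LPS 4 h were lowest. Atf3 overlaps the small gene Gm24748 on the opposite strand in GENCODE vM21, which is not in the count table under that name.

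Under LPS no tested member was called between DMM-treated and untreated cells. At 4 h 0 of 7 were called, against 3.11% of all genes called higher and 10.0% called lower; 1 had an unadjusted p under 0.05 and DESeq2 called 0. The median of the 7 was 0.22 beside 0.06 over all genes. At 48 h 0 of 7 were called (1 at an unadjusted p under 0.05, DESeq2 0), against 1.05% of all genes, with a median of -0.26 beside 0. Junb was higher in both DMM then LPS 4 h libraries than in both LPS 4 h libraries, by 0.44 ± 0.33 (edgeR, adjusted p = 0.425). Ier3 was lower in both DMM then LPS 48 h libraries than in the LPS 48 h library, with a log2 fold change of -0.84 ± 0.42 (edgeR, adjusted p = 0.382), and without DMM then LPS 48 h replicate 2 this difference was -1.51 ± 0.40 (adjusted p = 0.0237; range over 9 alternatives 0.0237 to 0.976). The test of the difference of LPS effects called 0 of 7 members at 4 h (2 at an unadjusted p under 0.05, DESeq2 1), against 4.82% of all genes, and 0 of 7 at 48 h (1 at an unadjusted p under 0.05, DESeq2 1), against 0.353%.

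**Figure D3:**
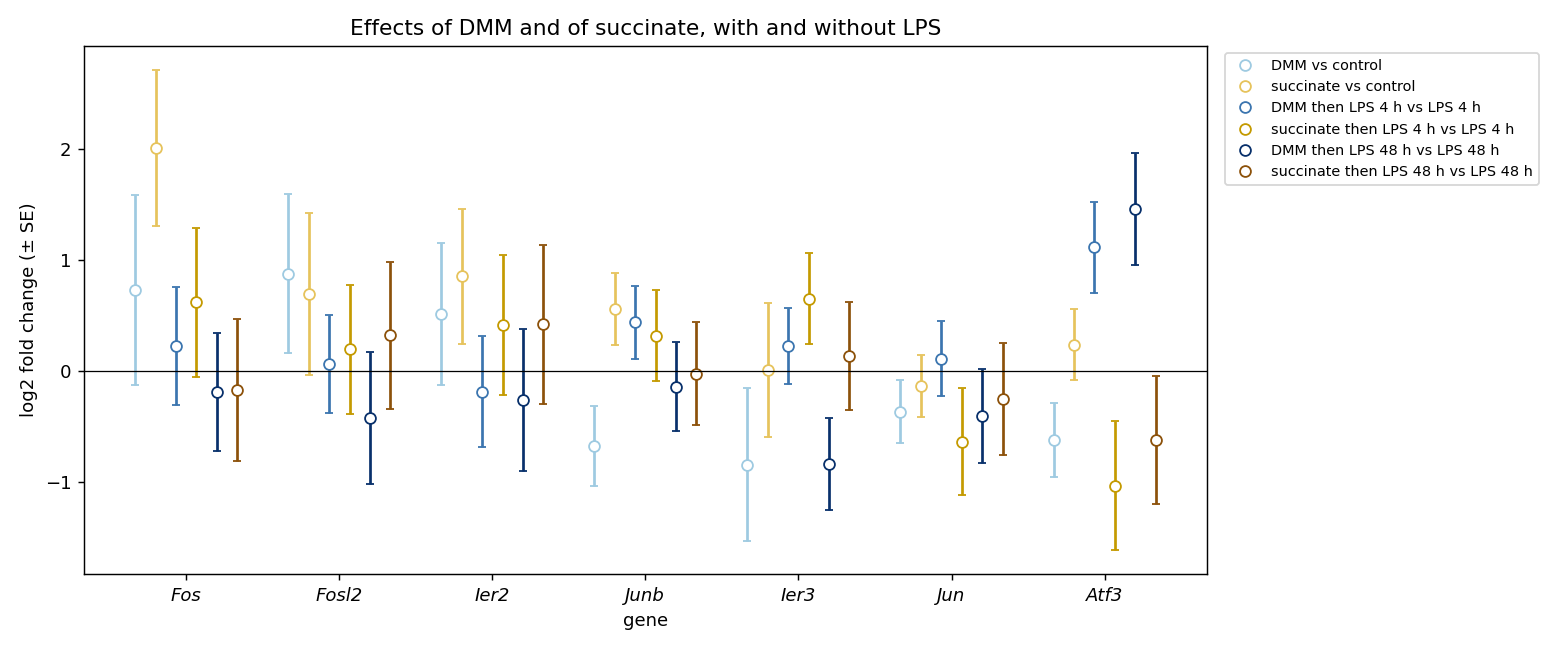
Log2 fold change, with standard errors, of DMM or succinate against no pretreatment in unstimulated cells and under LPS. All points are open because none passed edgeR's test over all genes. Atf3 is the gene whose DMM values under LPS (1.11 and 1.46) lie farthest above 0, with the succinate values at -1.04 and -0.62.

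Without LPS no tested member was called for either agent. For succinate against control edgeR called 0 of 7 members (1 at an unadjusted p under 0.05, DESeq2 0) and 0.00% of all genes. For DMM it called 0 of 7 (0 at an unadjusted p under 0.05, DESeq2 0) and 0.484% of all genes. The medians of the 7 genes were 0.55 for succinate and -0.37 for DMM, beside 0.03 and 0.02 over all genes. Fos was at 9.40, 3.26, 5.50 and 6.29 CPM with succinate, each above the highest control at 2.05 CPM. That difference, 2.00 ± 0.70, did not pass (edgeR, adjusted p = 0.828) and sets 27 reads in 4 libraries against 4 reads in 3.

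Between DMM and succinate 0 of 7 members were called (3 at an unadjusted p under 0.05, DESeq2 0), against 0.196% of all genes, with a median of -0.85 beside -0.02. All but Fosl2 had a negative value. Junb was at 29.4, 27.2, 43.3 and 14.1 CPM with succinate and at 14.0, 14.8, 5.84 and 13.9 CPM with DMM, and the ranges overlapped at the lowest succinate library. Its difference, -1.23 ± 0.32, did not pass (edgeR, adjusted p = 0.111) but passed without succinate replicate 4 (-1.47 ± 0.30, adjusted p = 0.0253; range over 14 alternatives 0.0201 to 0.907). Atf3 differed by -0.86 ± 0.30 (edgeR, adjusted p = 0.382) and Fos by -1.27 ± 0.55 (edgeR, adjusted p = 0.508).

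Succinate before LPS was followed in 1 library at each time. At 4 h 0 of 7 members were called (0 at an unadjusted p under 0.05, DESeq2 0) against 0.941% of all genes, and at 48 h 0 of 7 (0 and 0) against 0.484%. Ier3 was at 0.65 ± 0.41 from LPS alone at 4 h and at 0.13 ± 0.49 at 48 h. Between 48 h and 4 h of LPS without pretreatment 0 of 7 were called (0 and 0), and 0.0131% of all genes.

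Myc, Jund and Egr1 were counted by single reads. Myc held 33 reads over all 21 libraries, with at most 4 in a library and 0 in 4 libraries. It held 22 reads in the 11 unstimulated libraries, of 10131741 counted, and 9 in the 9 LPS-treated ones, of 11262733. Jund held 21 reads, at most 3 in a library, with 8 in unstimulated and 13 in LPS-treated libraries. It overlaps Gm11175, which is in the count table, on the opposite strand, so reads of the overlap cannot be told apart. Egr1 held 3 reads, each in a different library, 1 unstimulated and 2 LPS-treated. With 3 reads worth 1.65 to 4.66 CPM in these libraries, these counts are a description without a test, and they do not show that the genes are not expressed.

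**Figure D4:**
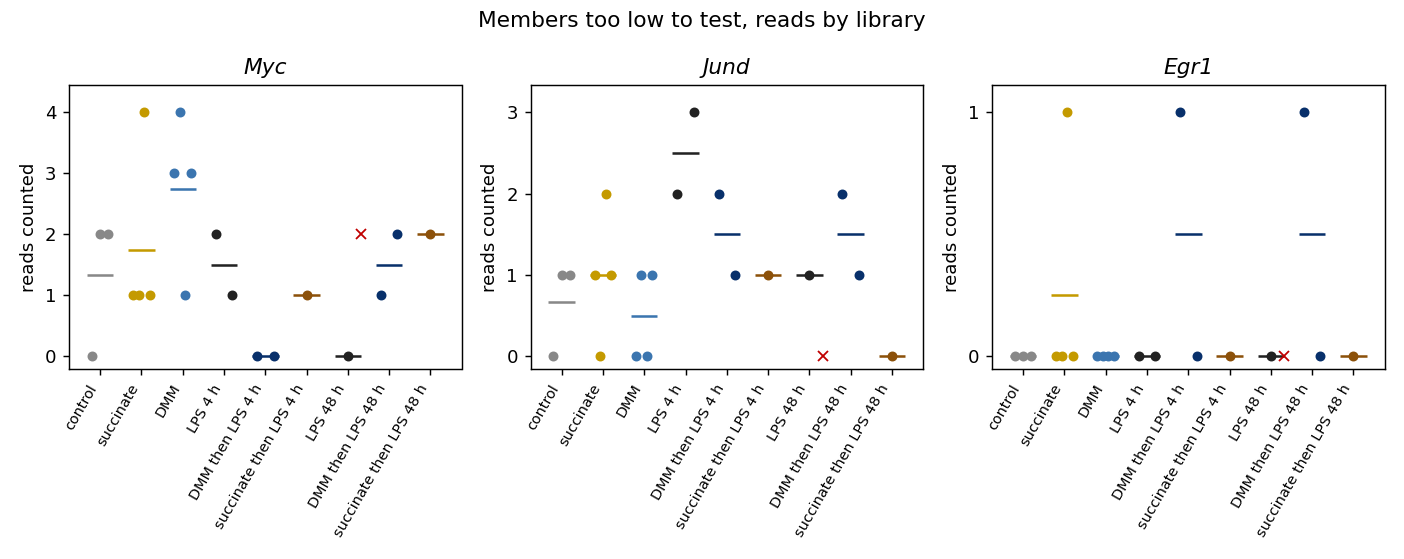
Reads counted per library for Myc, Jund and Egr1 by treatment group. Points are libraries, bars are group means and the red cross is the library labelled LPS 48 h replicate 1. No library exceeds 4 reads.

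The wider families were counted from lists of related genes in the same fit. The lists were chosen with earlier results of these data known, so their counts and medians describe them and are not a test. Of 14 tested further immediate early genes, 6 rose and 1 fell after 4 h of LPS, beside 14.0% higher and 11.0% lower over all genes, with a median of 1.497 on the log2 scale beside -0.08. Of those that rose, Plk3 passed the low-count filter only through LPS-treated libraries, so its call is a description. Nfkbia, the inhibitor that returns NF-kappaB to the cytoplasm, rose by 4.61 ± 0.40, the phosphatase gene Dusp1, which switches MAP kinases off, by 3.76 ± 0.48, and Tnfaip3 and Nfkbiz, feedback and co-regulators of NF-kappaB, by 3.41 ± 0.41 and 2.96 ± 0.35. The gene that fell was Klf10, by 1.74 ± 0.66 (edgeR, adjusted p = 0.0438). At 48 h of LPS 6 of 14 rose and 0 fell (11.6% and 7.15% over all genes), and in DMM-treated cells 8 rose at 4 h (14.4% over all genes) and 11 at 48 h (14.2%). DMM then LPS 4 h against LPS 4 h gave 2 of 14 higher (3.11% over all genes), Csrnp1 by 2.46 ± 0.68 (edgeR, adjusted p = 0.0109) and the stress gene Gadd45b by 2.11 ± 0.74 (edgeR, adjusted p = 0.0480), while Klf10, at 1.38 ± 0.70, and Klf6, at -0.59 ± 0.32, did not pass. Csrnp1, with 5 reads in the LPS 4 h group, passed the low-count filter only through DMM then LPS libraries. Its call, and the count of 2 that includes it, are thus a description.

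Of 8 tested AP-1 and other leucine zipper partners, 2 rose after 4 h of LPS, Mafg by 2.37 ± 0.31 and Batf by 2.32 ± 0.85, beside 14.0% of all genes. Batf passed the low-count filter only through LPS-treated libraries, so its call is a description. The list's median was -0.20, beside -0.08 over all genes. MAFG is a small MAF protein without an activation domain, and BATF pairs with JUN proteins. Maf (-0.73 ± 0.49), a large MAF factor of macrophages, did not pass (edgeR, adjusted p = 0.330). With DMM before LPS 4 h, Mafg fell by 0.88 ± 0.31, just under the threshold, and Mafk (1.37 ± 0.59) did not pass. Of 14 tested genes of the MAP kinase route, 2 rose at 4 h of LPS, a share close to the 14.0% of all genes. They were the kinases Map2k1 (1.94 ± 0.28) and Mapkapk2 (1.55 ± 0.35), while Elk3 and Map3k8 (0.99 ± 0.47 and 1.03 ± 0.55) did not pass. DMM then LPS 4 h against LPS 4 h called 0 of these 14, beside 3.11% higher and 10.0% lower over all genes. Map2k1 was at -0.81 ± 0.30 (edgeR, adjusted p = 0.0741).

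Of the 7 textbook AP-1 target genes, 5 rose at 4 h of LPS, beside 14.0% of all genes, and 0 fell, beside 11.0%. Mmp9 and Mmp13 passed the low-count filter only through LPS-treated libraries, and Timp1 only through DMM then LPS 48 h. The count and the list median are thus a description. The list median was 5.29, beside -0.08 over all genes. It was the highest of the 6 lists, a rank among lists chosen with earlier results of these data known. The chemokine gene Ccl2 rose by 9.52 ± 0.55 and Cd44, the hyaluronan receptor, by 1.36 ± 0.30, while Plau (-0.39 ± 0.56) and Timp1 (1.24 ± 1.22) did not pass. From 1 to 3 reads in the controls, the urokinase receptor gene Plaur rose 108-fold (95% counting interval 36.4 to 527), the collagenase gene Mmp13 51.6-fold (8.65 to 2100) and the gelatinase gene Mmp9 416-fold (74.0 to 16500). Mmp9 was lower after DMM then LPS than after LPS alone, at -2.77 ± 0.41 at 4 h (edgeR, adjusted p = 1.95e-05) and -3.44 ± 0.50 at 48 h (edgeR, adjusted p = 0.000135). In the succinate then LPS libraries, 1 at each time and so without a replicate, the log2 difference of Mmp9 from LPS alone was 4.69 at 4 h and 3.58 at 48 h, and that of Ccl2 was -3.49 and -2.99; these genes were picked after their values were seen. No tested AP-1 member was called in those comparisons.

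Around Myc, the MAX network had 0 of 9 genes higher and 1 lower after 4 h of LPS, beside 14.0% and 11.0% of all genes. The gene lower was Mxd4, a MAX partner that opposes MYC, which was at 0 in both LPS 4 h libraries and at 54 reads in the controls, at least 11.9-fold lower against a floor of 3 reads over the group. Mxd1, of the same family, was higher by 2.59 ± 0.62 in DMM then LPS 48 h than in LPS 48 h (edgeR, adjusted p = 0.0361). Of 11 tested MYC targets, 2 rose and 1 fell at 4 h of LPS, shares near the 14.0% higher and 11.0% lower of all genes. Ldha, lactate dehydrogenase, rose by 3.37 ± 0.36 and the translation factor gene Eif4e by 1.48 ± 0.28, and the nucleolar protein gene Npm1 fell by 1.53 ± 0.28. Npm1 was lower again with DMM before LPS 4 h, at -0.93 ± 0.31 (edgeR, adjusted p = 0.0417).

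Across the 20 libraries, the genes whose log2 CPM followed each member most closely were described by Pearson's r. They were sought among 4257 genes with a mean of at least 10 CPM, leaving out symbols of unnamed or predicted genes. These libraries share the split by LPS, so any LPS-responsive genes correlate, and no p is given. Ier3 was nearest Il1b (r = 0.99), the glycosyltransferase gene Ggta1 (0.98) and Ptgs2 (0.98), the inducible cyclooxygenase. Junb was nearest Pgm2 (0.96), Usp18 (0.95) and Ero1l (0.95), and Fosl2 nearest Slc11a1 (0.95), Hcls1 (0.95) and the complement gene C3 (0.95). Atf3 was nearest the interferon-induced genes Ifit3 (0.86), Rsad2 (0.85) and Cmpk2 (0.82). Fos was nearest Il17ra (0.90), Lrrc59 (0.87) and Cd44 (0.87), Ier2 nearest Mafg (0.85), Nfe2l1 (0.84) and Lcp2 (0.84), and Jun nearest Csnk1g1 (0.80), Nrd1 (0.79) and Arf3 (0.77).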

How the data were processed

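Bulk RNA sequencing counts of 21 libraries were analysed. Per the labels' protocols, libraries were made by a modified SmartSeq2 method with no molecular identifiers named; TopHat2, Bowtie, HTSeq and edgeR are named, per the submitters' processing notes, without versions, and the genome build and strand setting are not stated. The values are whole-number read counts for each gene symbol, deposited by the authors. The members and gene lists were chosen with earlier results of these data known. Genes named beyond the 10 members are the up to 4 of each list with the smallest p in LPS 4 h against control and in DMM then LPS 4 h against LPS 4 h, the 3 genes nearest each member in log2 CPM, 3 stimulation markers (Saa3, Il1b and Tnf), and, chosen after their values were seen, Prdx2, Timp1, Mxd1 at 48 h, Mmp9 at 48 h, and Mmp9 and Ccl2 after succinate. Some genes taken by this rule are not reported here.

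Genes were kept by edgeR 4.0.16 (R 4.3.3) with a count minimum of 10 in at least 1 library and a total of 15, which left 7651. CPM are counts per 1e6 counts of the kept genes, scaled by TMM. All 9 groups were fitted in 1 quasi-likelihood model of 20 libraries (11 residual degrees of freedom, common biological coefficient of variation 0.231), without the library labelled LPS 48 h replicate 1, which was doubted from its values. A group with a single library takes its spread from the other groups. The log2 fold changes from edgeR include the small prior count that it adds to each library. Their SE were derived from the test statistic and the log2 fold change without that prior count. Intervals and floors (3 counts) cover counting error only. The fit was tested on simulated data with known changes, for LPS 4 h against control. It called 30% of genes set to differ 2-fold and 95% of those set to differ 4-fold. These genes were drawn from those with a mean of at least 30 CPM. Fos, Fosl2 and Ier2 lay below that in every library, and recovery at such levels was not tested. Of 7451 genes set not to differ, 3 were called. A gene not called may therefore still differ by 2-fold. Recovery in the other comparisons was not tested. Alternatives were all 21 libraries, median-of-ratios factors, no low-count filter, DESeq2 1.42.0, leaving out the other LPS time, a replicate block, each library left out and, added after seeing the data, a filter passed in at least 2 libraries.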

Additional observations from a re-analysis of the deposited data

Results flagged for a closer look

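In the library labelled LPS 48 h replicate 1, which otherwise held unstimulated levels of Saa3, Il1b and Tnf, 3 tested members lay above every control. Fos was at 5.28 CPM (controls 0 to 2.05), Fosl2 at 3.52 CPM (controls 1.17 to 2.05) and Ier2 at 6.16 CPM (controls 2.05 to 5.04). Each lay within the range of all 11 unstimulated libraries and below the LPS 48 h replicate 2 library.

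A single library stood far from the others of its group for 3 genes. Junb in DMM had a lowest library at 5.84 CPM, with the others at 13.9 to 14.8 CPM. Ier2 in DMM had a highest library at 9.73 CPM, with the others at 2.61 to 3.11 CPM; both are DMM replicate 3. Egr1 in succinate was at 0.688 CPM in a single library and at 0 in the others, which is a single read. For values that vary continuously, chance alone marks about 1 in 20 such groups, and 20 combinations of gene and group of 4 libraries were examined. A single read among zeros is always marked, so that rate does not hold for Egr1 or for other genes with counts near 0.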

How the results depend on the processing

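Of 1220 values of single members under an alternative, 1184 stayed on the same side of the threshold, 16 calls were lost and 20 gained. No called value changed sign; 49 values called in neither fit did. The added filter changed no call. Low counts limit Myc, Jund (which also overlaps another gene) and Egr1 throughout, and Fos, Fosl2 and Ier2 in the controls. The cause of the low counts was not tested.

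With all 21 libraries 2 members were called in LPS 48 h against control (4 as reported) and 0 in DMM then LPS 48 h against DMM then LPS 4 h (1 as reported). The difference of LPS effects with and without DMM had 1 member called (Atf3; 0 as reported) at 4 h with median-of-ratios factors, no filter, DESeq2, the other LPS time left out and the replicate block, and 1 at 48 h with no filter and DESeq2. No filter also gave 1 call in DMM against succinate (Junb), 1 in DMM then LPS 4 h against LPS 4 h (Atf3) and 2 in DMM then LPS 48 h against DMM then LPS 4 h. Apart from the settings' own construction, the cause was not tested.

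Leaving out each library in turn gave 3 to 5 members called in LPS 4 h against control, 4 to 5 in LPS 48 h against control, 5 to 6 in DMM then LPS 4 h against DMM, 4 to 5 in DMM then LPS 48 h against DMM, 0 to 2 in DMM then LPS 48 h against DMM then LPS 4 h, 0 to 1 in DMM then LPS 48 h against LPS 48 h, in DMM against succinate and in the difference of effects at 4 h, and 0 in the other comparisons where a library could be left out. The highest values came without DMM then LPS 48 h replicate 1 (2 calls), DMM then LPS 48 h replicate 2, succinate replicate 4, and control replicate 4 or DMM replicate 3.

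The replicate block, built from the numbers of LPS-treated libraries, gave Ier2 an adjusted p of 0.0644 in DMM then LPS 4 h against DMM (call lost) and 0.0404 in LPS 48 h against control (call gained, edgeR). The numbers were not taken to pair the libraries. The check was made for 1 pair of groups at 4 h, where replicate differences of LPS 4 h and DMM then LPS 4 h correlated at 0.000252 over 7651 genes.

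Counts over all genes that moved by more than 1.5 times were, with 21 libraries, 484 (1432 as reported) for LPS 48 h, 0 (37) for DMM, 1 (15) for DMM against succinate, 455 (1003) for DMM then LPS 4 h and 11 (72) for succinate then LPS 4 h against LPS 4 h, 6 (37) for succinate then LPS 48 h against LPS 48 h, 19 (1) for LPS 48 h against 4 h, 10 (75) for the same after DMM, and 98 (369) and 61 (27) for the differences of effects at 4 h and 48 h. No filter gave 121 for DMM, 6 (0) for succinate, 65 for DMM against succinate, 72 for succinate then LPS 48 h, 11 for LPS 48 h against 4 h, 145 for the same after DMM and 84 for the 48 h difference of effects. DESeq2 gave 4, 124 and 60 for the last 3. Leaving out the other LPS time gave 21 for DMM and 36 (80) for DMM then LPS 48 h against LPS 48 h. The replicate block gave 28 for the latter, 13 for succinate then LPS 48 h, 5 for LPS 48 h against 4 h and 10 for the 48 h difference of effects. Leaving out libraries gave 4 to 139 for DMM, 0 to 2 for succinate, 2 to 22 for DMM against succinate, 302 to 648 for DMM then LPS 4 h and 27 to 37 for succinate then LPS 4 h against LPS 4 h, 35 to 374 for DMM then LPS 48 h against LPS 48 h, 1477 to 2369 (2421) for DMM then LPS 4 h against DMM, 13 to 302 for DMM then LPS 48 h against DMM then LPS 4 h, and 102 to 423 and 11 to 128 for the differences of effects.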
